A study of Mus musculus with 2 samples.

Results

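Solute carriers are membrane proteins that move sugars, amino acids, metals, ions, nucleotides, vitamins and organic acids across the plasma membrane and the membranes of lysosomes, Golgi and mitochondria. They work as facilitators, as cotransporters driven by ion gradients or as exchangers, and several need a partner chain or chaperone to reach the membrane. In the small intestine they are best known from absorptive enterocytes, while leukocytes use them for glucose and glutamine supply, lactate release, iron and zinc handling and lysosomal export. The genes described here were all those whose updated symbol starts with Slc and a digit and that had a probe set of a single gene in the platform annotation, which gave 262 of the 12393 genes on the arrays, represented by 419 of 22690 probe sets. Of these, Slc9a3r1, Slc9a3r2 and Slc4a1ap carry the prefix but encode adaptor proteins that bind transporters, not carriers.

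Small intestinal lamina propria eosinophils, sorted as CD11b+, CD11c intermediate, MHCII- and SiglecF+ cells, and lamina propria dendritic cells, sorted as CD11c+MHCII+ cells, were profiled on 1 array each. Both populations came from C57BL/6 mice aged 8 weeks and were unstimulated, and no transgene or treatment is given in the labels for either. The labels do not say how many animals each sort drew on. With 1 array per population there was no replicate error and no test, so each difference below describes a pair of arrays, and in bulk RNA fewer cells of a type cannot be told apart from less RNA per cell.

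Signals are linear MAS5 intensities, written as units, which had been scaled to a trimmed mean of 500.2 units for eosinophils and 500.3 for dendritic cells. The median of all signals pooled, 134.7 units, served as a floor: dimmer signals were set to that value, which makes the fold a lower bound, written "at least". Genes under the floor on both arrays were given no fold. The 95th percentile of 31 background genes (germ cell, lens, hair and sensory genes) was 213.6 units, so a signal between the floor and 213.6 units may still be background. Folds compare the same probe set between arrays, and levels of different genes were not compared. Hybridisation spike controls were 2.06-fold brighter on the eosinophil array (18 probe sets), and centring on them would lower each log2 difference before the floor by 1.04. Pooled over 50 probe sets of 18 Slc genes above the floor on both arrays, the log2 differences of probe sets of 1 gene had an SD of 0.58, against 0.73 over all genes.

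Most listed eosinophil and dendritic cell genes followed the sorted populations. Of the gates, these lists cover SiglecF and MHCII, and the genes for CD11b and CD11c are not in them. Of 7 eosinophil genes, 5 passed 4-fold on the eosinophil side and 0 on the other. Of 9 dendritic cell genes, 0 passed 4-fold on the eosinophil side and 8 on the dendritic cell side. The eosinophil granule gene Prg2 was under the floor on both arrays. Of 8 enterocyte genes outside the Slc family, 4 were above the floor in eosinophils and 5 in dendritic cells, with summed signals of 1482 and 1277 units. Among these, Cdh17 was brighter in eosinophils by 4.28-fold or more (577 and 46.5 units), and Epcam gave 433 and 336 units. Of 12 transporters typical of enterocytes, 10 were under the floor on both arrays, among them the sodium-glucose transporter Slc5a1, the glucose carrier Slc2a2, the bile acid carrier Slc10a2 and the chloride exchanger Slc26a3. The remaining members, the peptide carrier Slc15a1 (137 units in eosinophils, under the floor in dendritic cells) and the phosphate carrier Slc34a2 (72.8 units in eosinophils, 140 in dendritic cells), lay at the floor. Of 4 T cell genes on the array, 2 (Cd3d and Cd3g) were under the floor in both populations, while Cd3e gave 336 units in eosinophils and 557 in dendritic cells and Cd8a gave 141 and 3732. Macrophage genes (6 on the array) were above the floor for 2 in eosinophils and 4 in dendritic cells, with Cd68 at 672 and 2573 units. The part of these other cell types in the differences below was not tested.

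Of the 262 Slc genes, 147 (56.1%) passed the floor on 1 or both arrays, compared with 64.5% of all genes. They were split into 87 above it on both arrays, 31 in eosinophils only and 29 in dendritic cells only. On the eosinophil side 5 members passed 4-fold, which is 3.40% of those measured, against 5.35% of all 7994 measured genes. The 11 members at least 4-fold brighter in dendritic cells were 7.48% of those measured, also against 5.35% of all genes. Both shares lie near the background, and the median log2 difference of 0.025 was close to that of all genes, 0.16. When the arrays were centred on the spike controls, the counts became 3 and 26 and the median -0.67. Over all genes that scale gave counts of 161 and 1153 and a median of -0.63. A 2-fold mark was passed by 54 members against a background of 34.5%, with 25 of them on the eosinophil side and 29 on the dendritic cell side (background 19% and 15.5%), which left 93 of 147 that did not pass it. Of these, 53 were above the floor on both arrays, and for the others the fold is a lower bound.

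**Figure D1:**
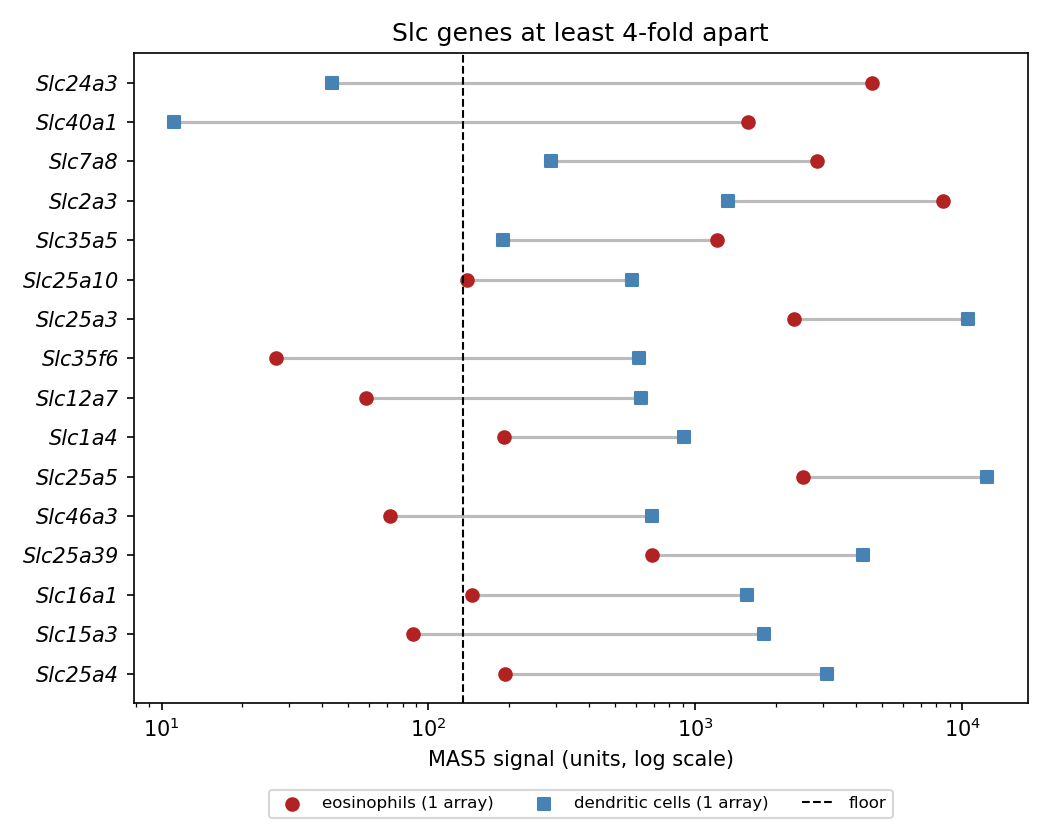
MAS5 signal (units, log axis) of the 16 Slc genes at least 4-fold apart, 1 row per gene, with the eosinophil array as circles, the dendritic cell array as squares and the floor of 134.7 units as a dashed line. The 5 upper genes are brighter in eosinophils and the 11 lower ones in dendritic cells, and 6 of the 16 have their dimmer signal under the floor.

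The 5 carriers at least 4-fold brighter in eosinophils move calcium, iron, neutral amino acids, glucose and, by family, nucleotide sugars. They are Slc24a3, Slc40a1, Slc7a8, Slc2a3 and Slc35a5. The 11 in dendritic cells were the lysosomal carriers Slc15a3 and Slc46a3, the monocarboxylate carrier Slc16a1, the neutral amino acid carrier Slc1a4, the potassium-chloride cotransporter Slc12a7, the orphan Slc35f6 and 5 mitochondrial carriers. For 2 of the eosinophil set and 4 of the dendritic cell set the other array was under the floor, so those folds are bounds. In addition, the dimmer signal of Slc35a5, Slc16a1, Slc25a10, Slc1a4 and Slc25a4 lay between the floor and 213.6 units, so their folds may be bounds too. With all probe sets of a gene averaged, 3 of the 5 and 5 of the 11 stayed past 4-fold.

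The promoters of the carriers furthest apart in each direction that have an entry in the RefSeq promoter table are shown so that the sequence ahead of the start can be read for carriers of either direction. Of the 16 genes, 13 have an entry. Each line gives the 250 bases before the annotated start (build GRCm38.p6), 5′ to 3′ on the gene's strand, with matches to any of 4 motifs in capitals. The motifs, searched on both strands, were GGGCGG (the GC box), CACGTG (an E-box), AGATAA (a form of the motif of GATA factors) and the ETS-IRF composite. No match overlapped another. Slc24a3 has 2 listed starts, of which the first by coordinate is shown, at chr2:145167525-145167774 on the plus strand. Slc7a8 lies at chr14:54781887-54782136 (minus), Slc25a4 at chr8:46211063-46211312 (minus) and Slc16a1 at chr3:104638414-104638663 (plus).
Slc24a3: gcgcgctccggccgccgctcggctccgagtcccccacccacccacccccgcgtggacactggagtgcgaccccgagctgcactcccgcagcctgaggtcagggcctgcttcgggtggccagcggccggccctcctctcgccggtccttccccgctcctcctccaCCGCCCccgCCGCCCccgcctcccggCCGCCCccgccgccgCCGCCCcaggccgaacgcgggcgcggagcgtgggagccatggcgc
Slc7a8: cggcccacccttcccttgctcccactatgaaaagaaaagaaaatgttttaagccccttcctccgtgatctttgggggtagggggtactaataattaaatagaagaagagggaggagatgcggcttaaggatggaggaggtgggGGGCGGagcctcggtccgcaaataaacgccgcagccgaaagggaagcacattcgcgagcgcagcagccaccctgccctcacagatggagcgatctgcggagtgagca
Slc25a4: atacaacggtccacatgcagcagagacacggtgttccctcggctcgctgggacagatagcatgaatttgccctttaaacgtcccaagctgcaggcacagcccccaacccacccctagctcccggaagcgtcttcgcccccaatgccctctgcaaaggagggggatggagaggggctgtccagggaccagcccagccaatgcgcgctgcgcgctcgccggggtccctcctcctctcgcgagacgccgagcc
Slc16a1: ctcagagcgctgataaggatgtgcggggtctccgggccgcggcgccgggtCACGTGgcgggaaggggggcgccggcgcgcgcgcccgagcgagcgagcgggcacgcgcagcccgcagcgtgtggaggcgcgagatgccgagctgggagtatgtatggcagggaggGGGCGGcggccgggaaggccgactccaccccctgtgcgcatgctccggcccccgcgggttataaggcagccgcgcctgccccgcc
The first start of Slc24a3 had 4 GC boxes, Slc7a8 and Slc16a1 had 1 each and Slc25a4 had none, while Slc16a1 also had 1 E-box. The second start of Slc24a3, not shown, held no match to any of the 4 motifs. None of the 4 windows shown held AGATAA or the ETS-IRF letters. Other forms of the GATA motif were not searched, and the Slc16a1 window holds TGATAA and the Slc25a4 window AGATAG. Over all 32851 windows of this length in the table, 32.7% held the GC box, 6.02% the E-box, 9.99% the letters AGATAA and 2.30% the composite. Among 274 windows of Slc genes on the arrays the shares were 52.2%, 9.85%, 7.66% and 2.92%. These are letter matches in a fixed window and no evidence of binding.

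Calcium exchange gave the largest difference in the family. Slc24a3, a potassium-dependent sodium-calcium exchanger that carries calcium out of the cell, gave 4597 units in eosinophils and only 43.4 in dendritic cells, which is below the floor, so it was at least 34.1-fold brighter in eosinophils. It has 1 probe set, so no other probe set bears on the value. On the spike control scale its log2 difference was 4.59, against 5.09 on the deposited scale. Of 4 members of the sodium-calcium exchanger family Slc8, Slc8a1 among them, 3 were under the floor on both arrays, and the mitochondrial exchanger Slc8b1 gave 186 units in eosinophils and 348 in dendritic cells. Among calcium pumps, Atp2a3 was 3.64-fold brighter in eosinophils (1266 and 348 units), whereas Atp2a2 gave 6003 units in eosinophils and 5523 in dendritic cells.

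Among glucose carriers Slc2a3 differed most. Slc2a3, the high-affinity facilitative glucose carrier GLUT3, gave 8499 units in eosinophils and 1326 in dendritic cells, a 6.41-fold difference. A second bright probe set agreed (7816 and 1113 units, 7.02-fold), another was near the floor (156 and 82.1 units) and the last was under it on both arrays. Both bright probe sets are of the types that can cross-hybridise with related sequences, and without such probe sets Slc2a3 no longer passed 4-fold. Slc2a1, the basal glucose carrier GLUT1, gave 9441 units in eosinophils and 6027 in dendritic cells, 1.57-fold brighter in eosinophils on the deposited scale but with a log2 difference of -0.39 on the spike scale. Of the 8 members of family Slc2, 5 were under the floor on both arrays, and Slc2a9, a urate carrier, was at it (11.5 units in eosinophils, 139.5 in dendritic cells).

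Of 15 members of the sugar class, which leaves out the sodium-glucose carriers of family Slc5, 7 were measured, and the class median was 0.65. At 4-fold 1 passed in eosinophils and none did in dendritic cells, beside 5.35% of all genes in each direction. Slc37a4, the carrier of glucose-6-phosphate into the endoplasmic reticulum, gave 478 units in eosinophils and 316 in dendritic cells, and the related Slc37a3 gave 249 and 148, with signs that turned on the spike scale for both. Slc37a2, a sugar phosphate exchanger of the same family, ran the other way, with 31.7 units in eosinophils, under the floor, and 392 in dendritic cells, at least 2.91-fold brighter there. Slc50a1, a sugar transporter of the SWEET type, was at least 3.17-fold brighter in eosinophils (427 and 38.8 units). Of the enzymes that use the imported sugar, all 4 on the arrays were measured and none passed 4-fold. Hexokinase Hk2 gave 1148 units in eosinophils and 2890 in dendritic cells, lactate dehydrogenase Ldha gave 5369 and 12243, and pyruvate kinase Pkm gave 3799 and 2612.

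The 2 leading lactate and pyruvate carriers differed in direction. Slc16a1, the widely expressed proton-coupled monocarboxylate carrier MCT1, gave 145 units in eosinophils and 1567 in dendritic cells, 10.8-fold brighter in dendritic cells. Slc16a3, the carrier MCT4 known for lactate export from glycolytic cells, gave 1965 units in eosinophils and 618 in dendritic cells, 3.18-fold brighter in eosinophils and short of the 4-fold mark. Their signs stayed opposite under every scaling tried, with Slc16a3 at 0.63 and Slc16a1 at -4.07 on the spike scale. Each has 1 probe set. The chaperones that bring these carriers to the membrane differed less, with Bsg at 565 units in eosinophils and 805 in dendritic cells and Emb at 1179 and 610. Slc16a6, a ketone body carrier of the same family, gave 1140 units in eosinophils and 722 in dendritic cells, and turned sign on the spike scale (-0.38). The fatty acid carrier Slc27a4 gave 338 units in eosinophils and 164 in dendritic cells, 2.06-fold, and turned sign on the spike scale. Slc27a1 was under the floor in eosinophils (108 units) and gave 230 units in dendritic cells, at least 1.71-fold.

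Amino acid carriers showed a split among the light chains that share the heavy chain Slc3a2. Slc3a2, which carries several Slc7 light chains to the membrane, gave 2085 units in eosinophils and 6116 in dendritic cells, 2.93-fold brighter in dendritic cells. Slc7a5, the large neutral amino acid exchanger LAT1, was also brighter in dendritic cells (200 and 766 units, 3.83-fold). Slc7a8, its paralog LAT2, ran the other way, with 2868 units in eosinophils and 287 in dendritic cells, 9.99-fold brighter in eosinophils. Slc7a11, the cystine-glutamate exchanger, gave 367 units in eosinophils and 156 in dendritic cells, 2.35-fold brighter in eosinophils. The light chains Slc7a6 (125 and 226 units) and Slc7a7 (96.9 and 182 units), which exchange cationic for neutral amino acids, were near the floor on both arrays. These directions held under all 5 scalings for Slc3a2, Slc7a5, Slc7a8 and Slc7a11, and each of the 4 has 1 probe set.

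Several sodium-coupled carriers of neutral amino acids are given one by one. Slc1a4, which exchanges alanine, serine and cysteine, gave 192 units in eosinophils and 911 in dendritic cells, 4.74-fold brighter in dendritic cells, while its other 2 probe sets were under the floor on both arrays. Slc38a1 (374 and 1158 units, 3.09-fold) and Slc38a2 (470 and 1323 units, 2.82-fold), which take up glutamine and alanine, had the same direction. The other measured member of that family, Slc38a10, gave 876 units in eosinophils and 706 in dendritic cells, and its sign turned on the spike scale. The glutamine carrier Slc1a5 gave 129 units in eosinophils, under the floor, and 204 in dendritic cells. Slc6a6, the taurine carrier, gave 801 and 1029 units. Glutamine synthetase, Glul, gave 2467 units in eosinophils and 2013 in dendritic cells. Gclm, the modifier subunit of the enzyme that uses cysteine for glutathione, was at least 4.55-fold brighter in eosinophils (613 and 121 units), while the catalytic subunit Gclc gave 235 and 362 units. The cationic amino acid carrier Slc7a2 and the betaine carrier Slc6a12 were under the floor on both arrays.

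Lysosomal export of peptides and amino acids separated Slc15a3 from Slc15a4. Both encode proton-coupled histidine and peptide carriers of endolysosomes, where they are known to support signalling by nucleic acid sensors. Slc15a3 gave 87.6 units in eosinophils, under the floor, and 1813 in dendritic cells, at least 13.5-fold brighter in dendritic cells. Slc15a4 gave 243 and 228 units, a 1.07-fold difference whose sign turned under 4 of the 5 scalings. Slc66a1, a lysosomal exporter of cationic amino acids, gave 25.1 units in eosinophils and 268 in dendritic cells, at least 1.99-fold. Slc46a3, a lysosomal carrier of the folate and heme transporter family, gave 71.9 units in eosinophils and 690 in dendritic cells, at least 5.12-fold brighter in dendritic cells. With the floor at 213.6 units, Slc46a3 dropped under 4-fold. Over the whole class of 51 amino acid and peptide carriers, 23 were measured and the median was -0.36. At 4-fold 1 (4.35%) passed on the eosinophil side and 2 (8.70%) on the dendritic cell side, beside 5.35% of all genes in each direction.

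**Figure D2:**
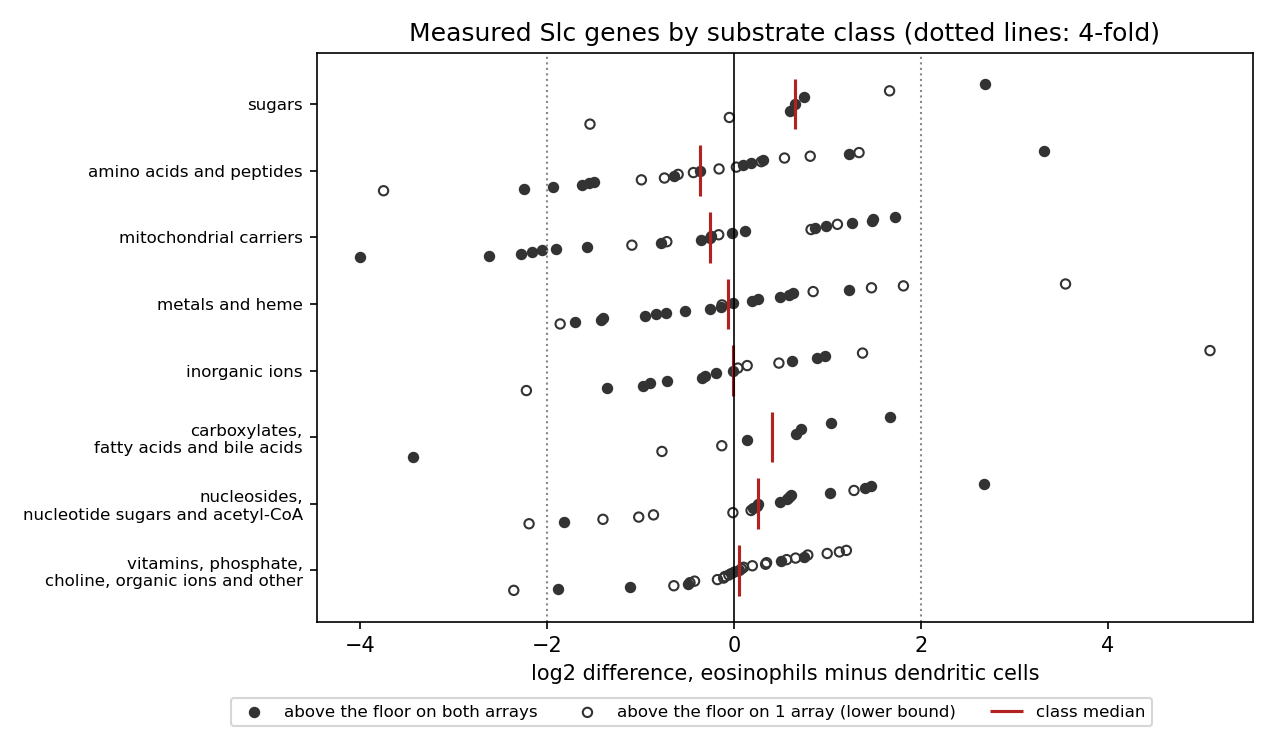
Log2 difference, eosinophils minus dendritic cells, of the 147 measured Slc genes in 8 substrate classes, with filled points for genes above the floor on both arrays, open points for lower bounds, a red bar for the class median and dotted lines at 4-fold. Most points lie between the dotted lines, and 5 of the 11 points at or beyond the left line are mitochondrial carriers.

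Mitochondrial carriers held the most members at least 4-fold apart. Of 33 carriers of the inner membrane family Slc25, 24 were measured, 0 passed 4-fold on the eosinophil side and 5 (20.8%) on the dendritic cell side, beside the 5.35% of all genes. The class median was -0.26, against 0.16 for all genes. At 2-fold, 5 of the 24 passed on the eosinophil side, beside 19% of all genes, and 8 on the dendritic cell side, beside 15.5%. The carriers of oxidative phosphorylation substrates were on the dendritic cell side. Slc25a4, an exchanger of ADP for ATP, gave 193 units in eosinophils and 3103 in dendritic cells, a log2 difference of -4.00. Its paralog Slc25a5 gave 2540 and 12377 units, 4.87-fold. Slc25a3, which brings in phosphate for ATP synthesis, gave 2350 units in eosinophils and 10552 in dendritic cells, 4.49-fold, with a log2 difference of -1.99 under quantile normalization and under loess, just short of the 4-fold mark. All 8 probe sets of Slc25a5 were brighter in dendritic cells, with log2 differences of -2.65 to -0.79. Of 4 probe sets of Slc25a4, 3 lay between -5.08 and -3.18 and the dimmest at 0.071. The paralogs are close in sequence. Most probe sets of Slc25a5, and the probe set that stands for Slc25a4, are of types that can cross-hybridise, so the signal of either may include the other. Without such probe sets both genes stayed past 4-fold.

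Other mitochondrial carriers brighter in dendritic cells serve fuel and redox supply. Slc25a20, which carries acylcarnitines for fatty acid oxidation, gave 3097 units in eosinophils and 11644 in dendritic cells, 3.76-fold and just short of the mark. Its other probe set, dimmer on both arrays, gave 263 and 2855 units, 10.8-fold and past the mark. Slc25a10, the dicarboxylate carrier, gave 140 and 580 units, 4.15-fold and just past it. Its log2 difference was -1.96 on the housekeeping scale, -1.44 with the floor at 213.6 units and -1.01 with probe sets averaged, all short of 4-fold. Slc25a39, known as a carrier of glutathione, gave 690 units in eosinophils and 4253 in dendritic cells, 6.16-fold, but its 3 probe sets had log2 differences between -2.62 and -0.44. Slc25a38, a glycine carrier for heme synthesis, gave 274 and 812 units. On the eosinophil side no carrier reached 4-fold. Slc25a45 (778 units in eosinophils, 236 in dendritic cells), the uncoupling protein relative Slc25a14 (1431 and 510), the peroxisomal carrier Slc25a17 (458 and 164) and the branched-chain amino acid carrier Slc25a44 (545 and 227) were 2.40-fold to 3.30-fold brighter there. All 4 kept that direction under each scaling. The NAD carrier Slc25a51 gave 982 and 1692 units, and the iron carrier Slc25a28 gave 647 and 827 units. Its paralog Slc25a37 was under the floor in eosinophils (110 units) and gave 151 units in dendritic cells. Mpc1, a subunit of the mitochondrial pyruvate carrier outside the family, gave 410 units in eosinophils and 473 in dendritic cells.

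**Figure D3:**
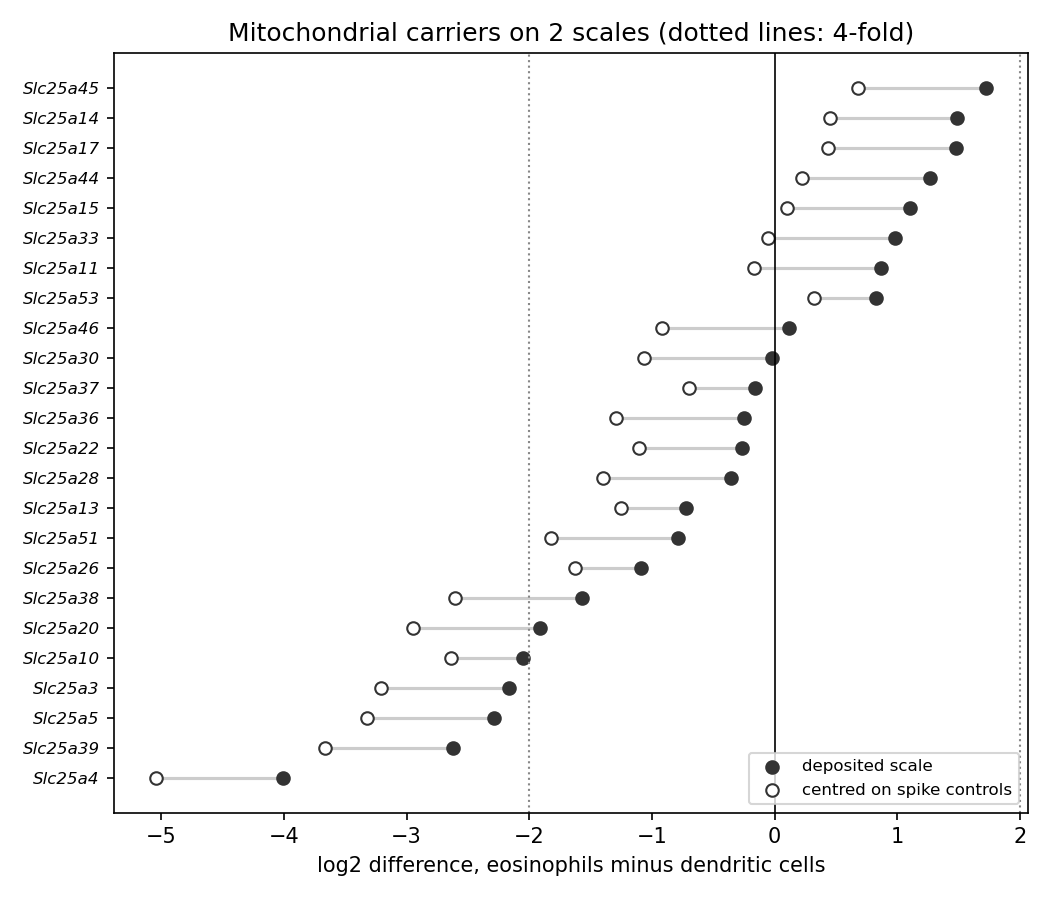
Log2 difference, eosinophils minus dendritic cells, of the 24 measured Slc25 genes on the deposited scale (filled) and after centring on the spike controls (open), with dotted lines at 4-fold. Slc25a4 lies furthest to the dendritic cell side at -4.00 and Slc25a45 furthest to the eosinophil side at 1.72 on the deposited scale, and the spike scale moves points left by up to 1.04.

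Iron export was the leading difference among metal carriers. Slc40a1, ferroportin, the exporter of iron from cells, gave 1575 units in eosinophils and 11.2 in dendritic cells, the second value being below the floor, and was at least 11.7-fold brighter in eosinophils. Its second probe set had the same direction, with 256 units in eosinophils and 6.77 in dendritic cells, at least 1.90-fold. Slc48a1, which moves heme out of endolysosomes, was at least 2.77-fold brighter in eosinophils (373 and 110 units). The phagosomal iron and manganese carrier Slc11a1 gave 523 units in eosinophils and 372 in dendritic cells, with its sign turned on the spike scale, and Slc11a2, the proton-coupled iron carrier, gave 186 and 188 units, with its sign turned on the housekeeping scale. Slc39a14, an importer of zinc and non-transferrin iron, gave 228 units in eosinophils and 199 in dendritic cells. Its sign turned under median, quantile, loess and spike scaling. Among iron genes outside the family, the ferritin heavy chain Fth1 was 3.81-fold brighter in eosinophils (35528 and 9330 units), heme oxygenase Hmox1 at least 2.02-fold (273 and 70.7 units), and the transferrin receptor Tfrc gave 1406 and 1378 units.

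No zinc carrier passed the 4-fold mark, which 10.7% of all genes passed in either direction. The fold of Slc39a9 is a lower bound. Of 9 measured importers of family Slc39, 1 passed 2-fold on the eosinophil side and 3 on the dendritic cell side, beside 19% and 15.5% of all genes. Slc39a1 gave 1292 units in eosinophils and 4216 in dendritic cells (3.26-fold), Slc39a6 gave 175 and 468 (2.68-fold) and Slc39a7, which releases zinc from the endoplasmic reticulum, gave 357 and 946 (2.65-fold). Slc39a9 was at least 3.51-fold brighter in eosinophils (473 and 13.3 units). Of 8 exporters of family Slc30, 5 were measured and none reached 2-fold, beside 34.5% of all genes. Slc30a5 gave 1865 units in eosinophils and 1240 in dendritic cells and Slc30a9 gave 2036 and 1316, both turning sign on the spike scale. The exporter Slc30a1, itself induced by zinc in many cells, was under the floor on both arrays. The zinc-binding metallothioneins Mt1 and Mt2 were under the floor in eosinophils (71.8 and 39.6 units) and gave 14814 and 2376 units in dendritic cells. Of the magnesium carriers, Slc41a2 differed by 3.63-fold or more toward dendritic cells (114 and 489 units). The copper carriers Slc31a1 (202 and 335 units) and Slc31a2 (363 and 155 units) pointed opposite ways. Across all 27 metal and heme carriers, 22 were measured, which at 81.5% was the highest share of any class, and the median was -0.070.

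Of 17 measured members of the inorganic ion class, 4 passed 2-fold, beside 34.5% of all genes. They were Slc24a3 and Slc12a5 on the eosinophil side and Slc12a7 and Slc12a9 on the dendritic cell side. The 17 include the adaptors Slc4a1ap, Slc9a3r1 and Slc9a3r2, which are not carriers and were not among the 4. Slc12a7, a potassium-chloride cotransporter used in volume regulation, gave 58.3 units in eosinophils, under the floor, and 629 in dendritic cells, at least 4.67-fold, and fell short of 4-fold with the floor at 213.6 units. The cotransporters Slc12a9 (149 and 384 units) and Slc12a2 (177 and 349 units) had folds of 2.57 and 1.97 toward dendritic cells. Another measured probe set of Slc12a2 pointed the other way, with 195 units in eosinophils and 106, under the floor, in dendritic cells. The potassium-chloride cotransporter Slc12a5 differed by at least 2.59-fold toward eosinophils (349 and 16.9 units), and its other probe set was under the floor on both arrays. Slc4a2, the chloride-bicarbonate exchanger AE2, gave 1241 units in eosinophils and 631 in dendritic cells, with a log2 difference of 0.98 that became -0.064 on the spike scale. The scaffold Slc9a3r1, which ties exchangers and receptors to the cortical actin linker ezrin, gave 17355 and 9377 units, 1.85-fold, and also turned sign there. Of the sodium pump subunits, Atp1b1 was 10.7-fold brighter in eosinophils (1744 and 163 units) and Atp1b3 was 2.87-fold brighter in dendritic cells (708 and 2030 units). The dendritic cell signal of Atp1b1 lay between the floor and 213.6 units.

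In family Slc35, which holds the nucleotide sugar carriers of the Golgi and endoplasmic reticulum, 16 of 18 members were measured. At 2-fold 4 passed on the eosinophil side and 4 on the dendritic cell side, beside 19% and 15.5% of all genes. At 4-fold 1 (6.25%) passed on each side, near the 5.35% of all genes. Slc35a5, related to UDP-sugar carriers, gave 1211 units in eosinophils and 190 in dendritic cells, 6.37-fold, and its 3 measured probe sets lay between 1.16 and 2.67 on the log2 scale. On the spike scale its difference was 1.63, under the 4-fold mark. Slc35f6 gave 26.7 units in eosinophils, under the floor, and 616 in dendritic cells, at least 4.57-fold, but its second probe set was at 0.36 in the other direction. Slc35b1, a carrier of ATP into the endoplasmic reticulum, was 3.53-fold brighter in dendritic cells (603 and 2129 units). The sulfate donor carriers Slc35b2 and Slc35b3 ran opposite ways, Slc35b2 being under the floor in eosinophils and at 356 units in dendritic cells, and Slc35b3 at 878 and 332 units. The UDP-galactose carrier Slc35a2 gave 2172 and 1832 units and turned sign on the median and spike scales. Slc35b4 was 2.75-fold brighter in eosinophils (466 and 169 units), and Slc35e1 gave 1432 and 956 units and turned sign on the spike scale. Slc29a3, the lysosomal nucleoside exporter, was at least 2.43-fold brighter in eosinophils (328 and 114 units), while the plasma membrane nucleoside carrier Slc29a1 and the CMP-sialic acid carrier Slc35a1 were under the floor on both arrays.

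Carriers of vitamins, phosphate, choline, organic ions and other substrates formed the largest class, with 58 members, 27 of them measured. This class also takes in families not placed elsewhere, among them Slc5 with its sodium-glucose carriers (11 members, 3 measured). At 4-fold, 0 passed on the eosinophil side and 1, Slc46a3, on the dendritic cell side, beside 5.35% of all genes in each direction. Slc20a1, the sodium-phosphate carrier PiT1, gave 271 units in eosinophils and 1005 in dendritic cells, 3.70-fold brighter in dendritic cells. Slc22a21, a carnitine carrier, gave 377 and 817 units. The choline carriers Slc44a1 (1626 and 1664 units) and Slc44a2 (1597 and 950 units) and the riboflavin carrier Slc52a3 (699 and 676 units) were within 1.68-fold, and each turned sign under at least 1 scaling. Slc19a1, the reduced folate carrier, gave 233 units in eosinophils and 74.6, under the floor, in dendritic cells, and the thiamine carrier Slc19a2 gave 294 and 55.3. Of the 18 organic ion carriers of family Slc22, 7 were measured and Slc22a21 was the 1 above the floor on both arrays, while the ergothioneine carrier Slc22a4 gave 5.35 units in eosinophils and 152 in dendritic cells.

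**Figure D4:**
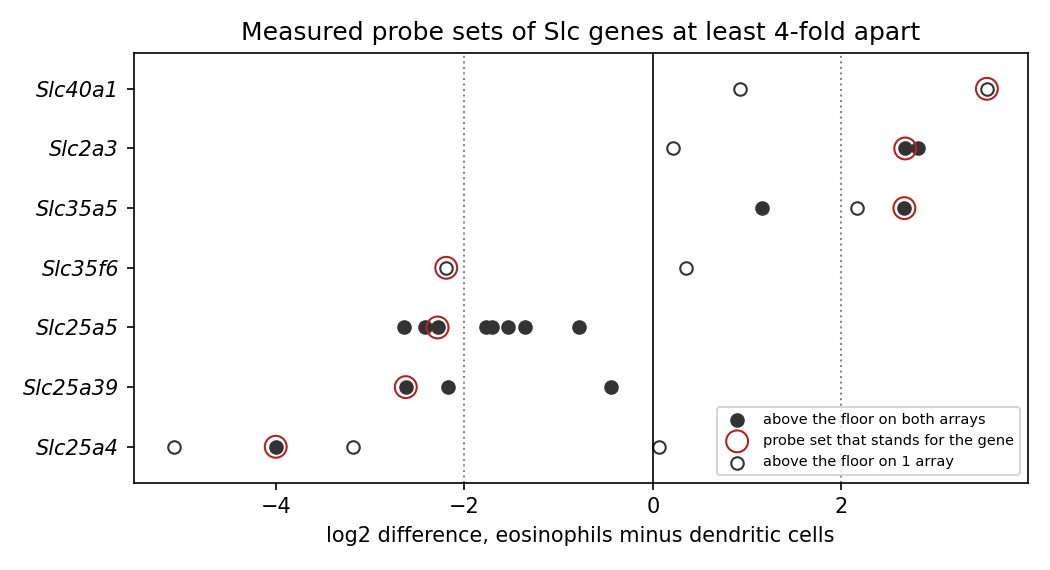
Log2 difference, eosinophils minus dendritic cells, of each measured probe set of the 7 Slc genes at least 4-fold apart that have 2 or more, with red rings around the probe set that stands for the gene, filled points above the floor on both arrays and dotted lines at 4-fold. Every point of 5 genes lies on 1 side of 0, while Slc25a4 and Slc35f6 each have a point on the other side.

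Probe sets of the same gene mostly had 1 direction but not 1 size. Of the 16 members at least 4-fold apart, 7 had 2 or more measured probe sets, and all of these probe sets had the same direction for 5 genes. Only Slc35a5 had each of them at least 2-fold apart. The other 9 rest on 1 measured probe set, as did the leading eosinophil carrier Slc24a3.

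Transporters outside the family are given for comparison. Of 24 measured ABC transporters, 4 (16.7%) passed 4-fold on the eosinophil side and 0 on the other, against the 5.35% of all genes in each direction. Abcc5, an exporter of cyclic nucleotides, gave 2808 units in eosinophils and 55.2 in dendritic cells, at least 20.8-fold. The peroxisomal fatty acid importer Abcd2 (1374 and 24.8 units), the exporter Abcg2 (1328 and 137 units) and the cholesterol exporter Abcg1 (1287 and 293 units) followed at 10.2-fold or more, 9.66-fold and 4.40-fold, all toward eosinophils. The dendritic cell signal of Abcg2 lay between the floor and 213.6 units, so its fold may be a bound. Of 3 measured organic anion carriers of the Slco family, Slco3a1 was 4.59-fold brighter in dendritic cells (541 and 2483 units). Aquaporin Aqp9, a channel for water and glycerol, gave 853 units in eosinophils and 285 in dendritic cells.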

How the data were processed

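The deposited values are linear signal intensity per probe set, which the authors computed in MAS5 5.0, as named in the submitters' processing notes. Detection calls, scanner files and the genome build were not used here. Of 22690 probe sets, 20380 had 1 gene in the platform annotation and were no array control, while 691 with several genes and 1606 absent from the annotation stayed unnamed. Entrez identifiers gave current symbols for 20351 probe sets in a RefSeq table of GRCm38.p6. Promoter sequences are RefSeq's, of the same build, and only these carry coordinates. Each gene was read from its brightest probe set (mean log2 signal of both arrays). Signals were floored at 134.7 units, and the threshold was 4-fold.

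The labels give 1 array per population, so no p-value, standard error or replicate spread was computed, and the number of arrays limits the precision. The fold and counting steps were tested on noise-free simulated data with known folds. The changed genes there were above the floor on both arrays, so the floor and the choice of probe set were not tested. Members, lists (35 background genes, 15 housekeeping genes, cell type markers, substrate classes by family number, transport partners) and alternatives were chosen with earlier results of these data known. Genes named were Slc24a3, Slc2a3, every member at least 4-fold apart, in each class the 3 brightest on either array and the 3 largest differences among those above the floor on both arrays, and a fixed set, with members under the floor otherwise given as counts. Other members named, the motifs and the promoters shown were chosen after their values were seen. Python 3.11.15, pandas 2.3.3 and statsmodels 0.14.6 were used.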

Additional observations from a re-analysis of the deposited data

How the results depend on the processing

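No paired analysis was possible because each population has 1 array. The 5 eosinophil and 11 dendritic cell members at least 4-fold apart, and the median log2 difference of 0.025, were recomputed under 12 alternatives. Centring on the median gave 5 and 16 members with a median of -0.18, quantile normalization 5 and 12 with -0.12, loess 5 and 12 with -0.15, centring on spike controls 3 and 26 with -0.67, and centring on housekeeping genes 5 and 10 with 0.080. Over all genes, 428 passed in each direction on the deposited scale. Under these 5 scalings, in the same order, 316 and 572, 422 and 441, 401 and 461, 161 and 1153, and 467 and 390 of all genes passed. Without a floor 40 and 40 members passed, with the floor at the 25th percentile 18 and 19, at the 75th percentile 3 and 5, and at the background 95th percentile 5 and 7. Averaging all probe sets gave 3 and 6, the probe set highest on either array 5 and 11, and leaving out cross-hybridising types 4 and 10. Calls were lost for Slc25a3 under quantile normalization and loess, Slc2a3 and Slc35a5 on the spike scale, and Slc25a10 on the housekeeping scale. The floor at 213.6 units lost Slc12a7, Slc25a10, Slc35f6 and Slc46a3, and that at the 75th percentile also Slc16a1, Slc1a4, Slc35a5 and Slc40a1. Averaging lost Slc2a3, Slc35a5, Slc12a7, Slc1a4, Slc25a10, Slc25a39, Slc25a5 and Slc35f6, and leaving out cross-hybridising types lost Slc2a3 and Slc25a39. At 2-fold, 25 and 29 members passed, beside 19% and 15.5% of all genes, and at 10-fold 2 and 3. More pass without a floor because dim signals then count. The shares of all genes under the floor and probe set alternatives and at 10-fold are not given here. Those counts therefore say nothing about Slc genes in particular. Of 665 recomputed log2 differences of 58 named genes, 576 moved by no more than the probe set SD of 0.73, 89 moved by more, and 0 of those at least 4-fold apart changed sign. Over all genes the median moved from 0.16 on the deposited scale to -0.63 on the spike scale. Of the 147 measured members, 35 had both signals under 213.6 units, where brightness limits what can be told apart.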
